A study of Mus musculus with 12 samples.

Results

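The 28 genes described here encode enzymes of cholesterol synthesis, the proteins that control their transcription, and proteins that move sterol or lower its uptake. They were picked by symbol and role, with earlier results of these data known: 8 enzymes from acetyl-CoA to squalene, 1 isoprenoid branch enzyme, 10 enzymes after squalene, 5 regulators and 4 transport genes. All 28 were found among the 47517 genes of the count table, and all 28 were among the 17609 genes tested. RNA was sequenced from 12 libraries of mouse embryonic fibroblasts made from E13.5 C57BL/6 embryos and immortalised with SV40 large T antigen. All cells carried floxed alleles of both Ssb1 (Nabp2) and Ssb2 (Nabp1), which encode single-stranded DNA binding proteins. Ssb1 is labelled Fl/F in the Cre-positive samples. Cre-negative cells had no recombinase, and Cre-positive cells carried RosaCreERT2, a Cre recombinase expressed from the Rosa26 locus that 4-hydroxytamoxifen (4-OHT) activates. Cells of each line stayed untreated or received either ethanol, the vehicle, or 4-OHT for 5 days, with 2 libraries in each of the 6 groups. The labels do not give the number of embryos or lines, nor say whether separate cultures gave the 2 libraries of a group. Cre and cell line therefore cannot be told apart, and p-values measure only how far these libraries spread, which may be technical. No time is given for untreated cells, so in comparisons with them the agent cannot be told apart from days in culture or handling.

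Cholesterol is built from acetyl-CoA through mevalonate to farnesyl pyrophosphate, which Fdft1 joins into squalene. Squalene is oxidised by Sqle and closed into the ring compound lanosterol by Lss, and the later enzymes remove methyl groups and move double bonds. When membrane sterol is low, Scap carries the transcription factor precursors Srebf1 and Srebf2 from the endoplasmic reticulum to the Golgi, where they are cleaved. Insig1 and Insig2 hold Scap back when sterol is high. Fibroblasts can make cholesterol themselves or take it up from lipoproteins in serum.

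Both genes targeted for deletion were lowest in the Cre-positive 4-OHT libraries. In Cre-positive cells Nabp1 was at 14.5 and 15.9 CPM (counts per 1000000 counts of the library) with ethanol and at 3.40 and 3.96 with 4-OHT, and Nabp2 was at 19.8 and 22.6 and at 4.84 and 5.09. Library totals ran from 20201855 to 36367012 counts, and raw counts of the 28 genes from 67 to 15131. Fibroblast markers summed to 5270.4 to 7350.3 CPM, although Thy1 was at 0 in 7 libraries. The lines differed in adipocyte markers, which summed to 82.2 to 90.4 CPM in Cre-negative and 10.5 to 18.7 CPM in Cre-positive libraries. In Cre-positive cells they summed to 12.4 and 10.8 CPM with ethanol and 16.5 and 18.7 with 4-OHT. Of the 7 listed adipocyte markers 3 were tested, and 2 of these rose from ethanol to 4-OHT there (all genes: 21.1% higher, 38.3% called). Fabp4 rose by 0.67 on the log2 scale (SE 0.0950, adjusted p = 1.07e-05 by edgeR's quasi-likelihood test). Fabp4 and Pparg made up nearly all of the Cre-negative sums, Adipoq was at most 0.0717 CPM and Lep was at 0 in every library. The part of these differences in the sterol gene results was not tested. Haematopoietic, epithelial and endothelial markers each summed to at most 4.58 CPM.

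Annotated promoters are shown first for 5 genes: 3 enzymes that fell with 4-OHT against ethanol in Cre-positive cells, and the regulator and transport gene that changed most there. Tm7sf2 (-0.72) and Nsdhl (-0.51) fell more than these 3 enzymes and are not shown, as their annotated promoters begin inside an annotated exon. RefSeq promoter windows (GRCm38.p6, the 250 bases before an annotated start) were found for 23 of the 28 genes, with no entry for Fdps, Fdft1, Sqle, Stard4 and Npc1. Both strands were searched for CCAAT, the box bound by NF-Y, which acts beside SREBP at many sterol genes, and for TCACNCCAC, a sterol regulatory element core; these 2 motifs share no bases where both occur. In the sequences below, which run 5′ to 3′ on the gene's strand, capitals mark these motifs, and ATTGG is CCAAT on the other strand. Hmgcs1 lies at chr13:119690101-119690350 (+ strand), Mvd at chr8:122443423-122443672 (- strand), Lss at chr10:76531355-76531587 (+ strand, 233 bases ending before the first annotated exon), Insig2 at chr1:121332590-121332839 (- strand) and Mylip at chr13:45389492-45389741 (+ strand).
Hmgcs1: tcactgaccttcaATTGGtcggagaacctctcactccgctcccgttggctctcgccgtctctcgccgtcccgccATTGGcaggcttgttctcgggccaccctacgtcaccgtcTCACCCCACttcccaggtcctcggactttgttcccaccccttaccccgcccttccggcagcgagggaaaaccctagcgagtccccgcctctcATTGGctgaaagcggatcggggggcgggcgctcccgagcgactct
Mvd: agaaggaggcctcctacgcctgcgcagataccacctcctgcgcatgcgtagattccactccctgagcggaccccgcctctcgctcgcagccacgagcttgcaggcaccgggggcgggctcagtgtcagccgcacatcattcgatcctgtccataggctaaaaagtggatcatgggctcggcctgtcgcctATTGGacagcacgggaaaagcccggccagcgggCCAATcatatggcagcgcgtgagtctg
Lss: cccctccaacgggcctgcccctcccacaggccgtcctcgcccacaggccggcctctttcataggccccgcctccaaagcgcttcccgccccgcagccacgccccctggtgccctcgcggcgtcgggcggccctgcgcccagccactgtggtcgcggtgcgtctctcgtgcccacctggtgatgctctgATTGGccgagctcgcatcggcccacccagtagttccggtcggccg
Insig2: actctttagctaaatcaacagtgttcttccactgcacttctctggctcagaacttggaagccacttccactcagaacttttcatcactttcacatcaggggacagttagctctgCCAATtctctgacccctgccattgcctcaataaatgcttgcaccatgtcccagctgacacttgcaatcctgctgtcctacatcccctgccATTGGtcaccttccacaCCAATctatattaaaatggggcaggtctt
Mylip: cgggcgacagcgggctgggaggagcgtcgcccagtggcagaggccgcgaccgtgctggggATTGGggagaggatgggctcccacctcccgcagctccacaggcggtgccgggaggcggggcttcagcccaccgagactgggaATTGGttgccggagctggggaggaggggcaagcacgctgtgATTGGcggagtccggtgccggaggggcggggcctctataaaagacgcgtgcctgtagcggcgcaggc
CCAAT occurred in 20 of the 23 genes (87.0%), against 37.5% of the 27025 genes with an entry and 40.3% of the 10409 tested genes with one. The 3 without it were Acat2, Scap and Abca1. A gene with several windows was counted if any of them held the motif, here and in the shares over all genes. Insig2 has 3 windows, and the one shown is the only one of them with CCAAT. Dhcr7 also has CCAAT in only 1 of its 3 windows. TCACNCCAC occurred in 1 of the 23 genes (4.35%), Hmgcs1, 137 bases before the annotated start, and in 1.22% of all genes with an entry. A match in these letters is a description and not a binding site, and the lack of one says only that the letters are not in the window. Genes with CCAAT included ones that fell (Hmgcs1, Mvd, Lss, Insig2) and ones that rose (Ggps1, Ebp, Mylip) with 4-OHT against ethanol in Cre-positive cells.

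Per kilobase of exon, Cyp51, Insig1 and Hmgcs1 had the highest levels of the 28, at 91.5, 80.7 and 79.2 CPM per kilobase as means of the 6 groups. Dhcr7 (3.47), Tm7sf2 (1.79) and Abca1 (0.712) had the lowest. Exons of 11 of the 28 genes overlap another annotated gene, and the strand setting of the counting was not given in the sources used here. Overlaps touch Hmgcs1, Idi1, Fdps, Fdft1, Ggps1, Lss, Cyp51, Tm7sf2, Srebf1, Scap and Npc1, whose reads could be shared with the neighbour.

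Synthesis enzymes fell from their untreated level in both lines, whichever agent was added, with the largest median fall in Cre-negative cells given ethanol. There 17 of the 18 enzymes were lower by edgeR's quasi-likelihood test (Benjamini-Hochberg adjusted p under 0.05 over all tested genes) and none was higher, with a median log2 change of -0.91. Of all tested genes 24.5% were called in that comparison (12.5% higher, 12.0% lower), and their median change was 0.00. With 4-OHT in Cre-negative cells 17 enzymes fell, with a median of -0.67 (all genes: 19.2% called, 10.1% higher and 9.14% lower). In Cre-positive cells 16 of 18 fell with ethanol, with a median of -0.32 (all genes: 14.9% called, 8.11% higher and 6.84% lower), and 16 of 18 fell with 4-OHT, with a median of -0.48 (all genes: 39.2% called, 21.0% higher and 18.2% lower). No enzyme of the 18 rose in any of these 4 comparisons, and comparisons within a line share the untreated libraries. Whether the lines differ in the change with ethanol was not tested. In such bulk samples fewer cells of a type and less RNA per cell cannot be told apart. Among enzymes, leaving out 1 library ended the calls in Cre-positive cells on Fdps (libraries 7, 8 or 12) and Fdft1 (7, 8, 11 or 12) with 4-OHT, and on Hmgcs1 (3, 7 or 8), Sqle (3, 4, 7 or 8) and Dhcr7 (3 or 8) with ethanol; adjusted p values were then 0.0546 to 0.246.

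Enzymes fell on both sides of squalene. In Cre-negative cells with ethanol the 8 enzymes up to squalene stood at a median of 51.0% and 52.4% of untreated in the 2 libraries, and the 10 after squalene at 54.6% and 56.3%. With 4-OHT these were 64.5% and 63.5% before squalene and 63.5% and 61.5% after it. In Cre-positive cells ethanol left 78.3% and 73.6% before and 84.5% and 83.4% after squalene, and 4-OHT left 66.5% and 67.4% before and 75.7% and 75.0% after. Medians before squalene were the lower of the 2 in both ethanol groups and in Cre-positive 4-OHT cells, and the higher in Cre-negative 4-OHT cells. The difference between the 2 stretches of the pathway was not tested. All 8 enzymes before squalene fell in 3 of the 4 comparisons with untreated cells, and 7 of 8 in the other, where Idi1 missed the threshold (-0.16, SE 0.0659, adjusted p = 0.105, Cre-positive ethanol). After squalene, the exceptions were Tm7sf2 in Cre-negative cells, Hsd17b7 in Cre-positive cells and Ebp in Cre-positive cells given 4-OHT.

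**Figure D1:**
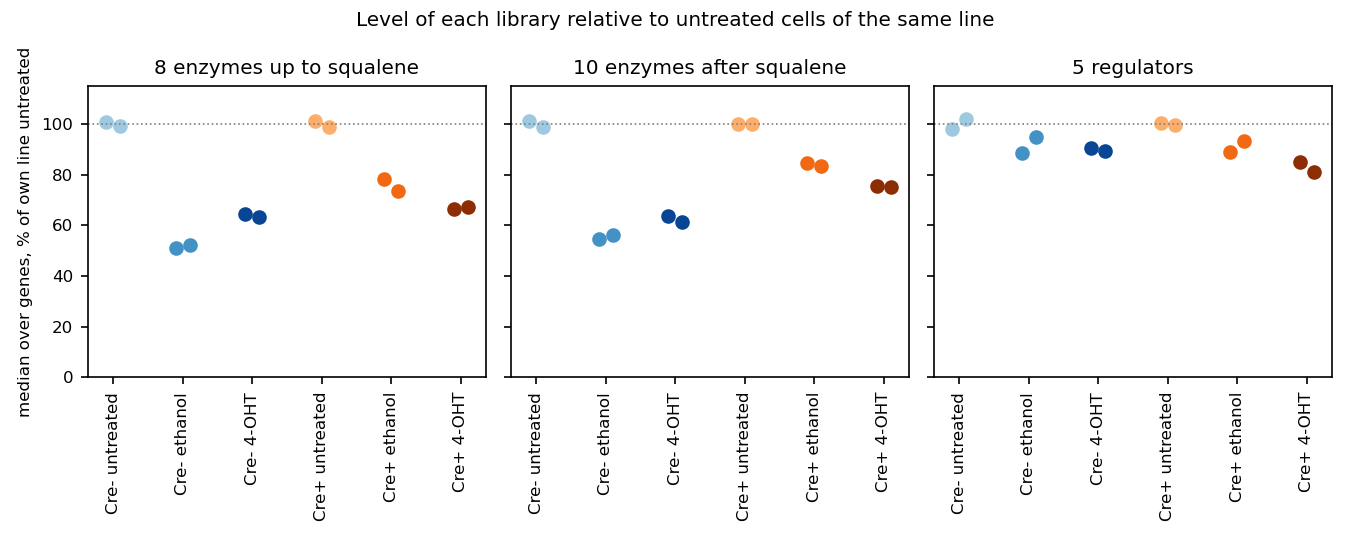
Median level of the 8 enzymes up to squalene, the 10 after squalene and the 5 regulators in each library, as percent of the untreated mean of the same line (vertical axis), by group (horizontal axis); each point is 1 library. Medians of both stretches of enzymes are lowest in the Cre-negative ethanol libraries (51.0% to 56.3%), and the median of the regulators is between 81.0% and 94.8% in every treated library. Single regulators went further: Insig1 was at 51.8% of untreated with ethanol and 56.4% with 4-OHT in Cre-negative cells.

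**Figure D2:**
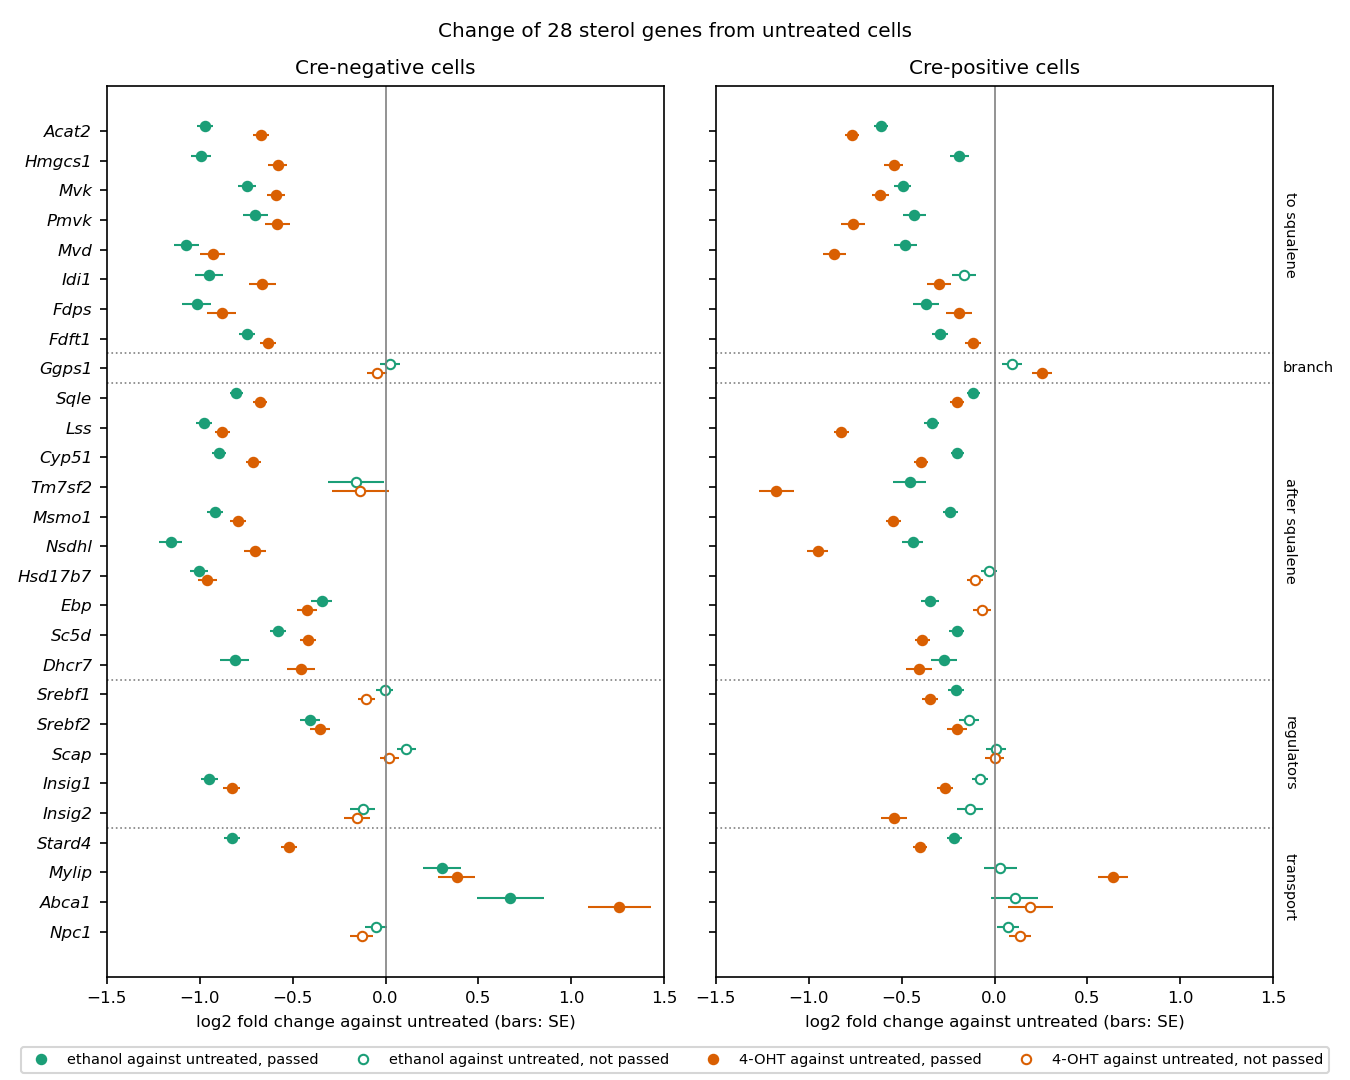
Log2 change of each of the 28 genes from untreated cells of the same line (horizontal axis, bars are SE), with ethanol and with 4-OHT, in Cre-negative and Cre-positive cells. Ethanol lies left of 4-OHT for most enzymes in Cre-negative cells and right of it for most in Cre-positive cells.

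Early enzymes of the pathway show the pattern library by library. Hmgcs1 (chr13:119690379-119708260), which makes HMG-CoA, was at 386 and 387 CPM in untreated Cre-negative cells, 188 and 200.2 with ethanol and 276 and 241 with 4-OHT. Cre-positive cells had Hmgcs1 at 519 and 529 CPM untreated, 440.0 and 478 with ethanol and 349 and 369.8 with 4-OHT. No 2 groups of a line overlapped, with 4-OHT above ethanol in Cre-negative cells and below it in Cre-positive cells. Against ethanol the log2 change was 0.41 (SE 0.0539, adjusted p = 8.27e-05) in Cre-negative and -0.35 (SE 0.0519, adjusted p = 1.64e-05) in Cre-positive cells. Mvd (chr8:122433601-122443422), the decarboxylase that makes isopentenyl pyrophosphate, was at 48.3 and 42.8 CPM untreated, 20.9 and 22.3 with ethanol and 22.9 and 24.7 with 4-OHT in Cre-negative cells. Cre-positive cells had Mvd at 62.8 and 62.1 CPM untreated, 45.3 and 44.2 with ethanol and 35.8 and 32.9 with 4-OHT. Here too the groups of each line did not overlap, but the Cre-negative gap between agents missed the test (0.14, SE 0.0742, adjusted p = 0.305). In Cre-positive cells Mvd fell by 0.38 on the log2 scale from ethanol to 4-OHT (SE 0.0631, adjusted p = 6.44e-05).

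Fdps and Fdft1, the last steps to squalene, were higher with 4-OHT than with ethanol in Cre-positive cells, by a margin that did not hold for Fdps under most alternatives. Fdps (chr3:89093588-89101959), which makes farnesyl pyrophosphate, was at 29.3 and 29.04 CPM untreated, 13.3 and 15.5 with ethanol and 16.2 and 15.5 with 4-OHT in Cre-negative cells. Cre-positive cells had Fdps at 38.3 and 37.3 CPM untreated, 30.7 and 28.02 with ethanol and 34.6 and 31.6 with 4-OHT. In Cre-positive cells 4-OHT libraries were both above ethanol libraries and both below untreated ones. The rise from ethanol was 0.18 (SE 0.0687, adjusted p = 0.0477) and was lost without library 4 (0.11, adjusted p = 0.336) or library 11 (0.11, adjusted p = 0.371). It was also lost with DESeq2 (adjusted p = 0.176), upper-quartile scaling (0.0575), no low-count filter (0.0870), the 2 groups alone (0.102) and ethanol and untreated cells as 1 reference (0.935). Fdft1 (chr14:63145150-63179578), squalene synthase, was at 148 and 144 CPM untreated, 83.9 and 90.1 with ethanol and 94.0 and 94.6 with 4-OHT in Cre-negative cells. Cre-positive cells had Fdft1 at 198 and 195 CPM untreated, 165 and 156 with ethanol and 182 and 179.9 with 4-OHT. Its Cre-positive 4-OHT libraries lay between the other 2 groups, and the rise from ethanol was 0.18 (SE 0.0406, adjusted p = 0.00162), or 0.03 (adjusted p = 0.516) from the joint reference. Ctsb, whose exons overlap Fdft1 on the opposite strand, also rose in that comparison (0.22, SE 0.0340, adjusted p = 3.75e-05), and was at 567 CPM on average. Ggps1, which lengthens farnesyl to geranylgeranyl pyrophosphate and leads away from sterols, kept within 42.7 to 54.8 CPM in all libraries. It rose from untreated with 4-OHT in Cre-positive cells (0.25, SE 0.0526, adjusted p = 0.000557). Arid4b, whose exons overlap Ggps1 on the opposite strand, also rose there (0.20, SE 0.0443, adjusted p = 0.00103), and was at 82.6 CPM on average.

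The other enzymes before squalene gave wider ranges between groups than within them. Acat2, which joins acetyl-CoA units and also serves other pathways, ran from 67.9 CPM (Cre-negative, ethanol) to 197 (Cre-positive, untreated). The mevalonate kinase Mvk ran from 41.7 to 107 CPM, the phosphomevalonate kinase Pmvk from 30.1 to 70.1 and the isomerase Idi1 from 13.2 to 32.3. For each of these 4 genes the lowest library was a Cre-negative ethanol one and the highest was a Cre-positive untreated one. From ethanol to 4-OHT in Cre-positive cells Acat2 fell by 0.16 (SE 0.0390, adjusted p = 0.00315) and Pmvk by 0.33 (SE 0.0640, adjusted p = 0.000322). Mvk fell by 0.12 (adjusted p = 0.0387), a call lost without any 1 of libraries 3, 4, 11 and 12 (adjusted p 0.0503 to 0.207). Idi1 did not pass there (-0.13, SE 0.0647, adjusted p = 0.107).

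After squalene, Lss, Tm7sf2 and Nsdhl had the largest falls with 4-OHT in Cre-positive cells. Lss (chr10:76531588-76557138), lanosterol synthase, was at 214 and 209 CPM untreated, 104 and 111 with ethanol and 112 and 118 with 4-OHT in Cre-negative cells. Cre-positive cells had Lss at 204 and 205 CPM untreated, 163 and 161 with ethanol and 117 and 114 with 4-OHT. The 4-OHT libraries of both lines thus reached 112 to 118 CPM, from starting levels of 204 to 214. Nsdhl (chrX:72918557-72958514), which acts in removing the C4 methyl groups, was at 47.1 and 46.3 CPM untreated, 20.3 and 21.5 with ethanol and 30.02 and 27.5 with 4-OHT in Cre-negative cells. Cre-positive cells had Nsdhl at 66.9 and 66.5 CPM untreated, 47.0 and 51.2 with ethanol and 34.6 and 34.5 with 4-OHT. Ethanol was the lowest group in Cre-negative cells and 4-OHT the lowest in Cre-positive cells, with no overlap. From ethanol to 4-OHT Nsdhl rose by 0.45 (SE 0.0663, adjusted p = 0.000259) in Cre-negative cells and fell by 0.51 (SE 0.0568, adjusted p = 5.07e-07) in Cre-positive cells.

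Tm7sf2 and Hsd17b7 were lower in every Cre-negative library than in any Cre-positive one, as were Fdft1, Ebp, Stard4, Mylip and Abca1. How many of all tested genes separate the lines in this way was not counted, so it cannot be called a trait of the sterol genes. Tm7sf2 (chr19:6062821-6068373), a sterol C14 reductase, was at 3.70 and 2.98 CPM untreated, 2.87 and 3.04 with ethanol and 3.13 and 2.91 with 4-OHT in Cre-negative cells. Cre-positive cells had Tm7sf2 at 17.3 and 17.7 CPM untreated, 13.3 and 12.2 with ethanol and 7.93 and 7.56 with 4-OHT. The Cre-negative groups overlapped and stayed below every Cre-positive library, and the Cre-positive groups did not overlap. Its fall from ethanol to 4-OHT in Cre-positive cells was 0.72 (log2 change -0.72, SE 0.0954, adjusted p = 4.81e-06). Vps51, whose exons overlap Tm7sf2 on the same strand, rose there (0.24, SE 0.0645, adjusted p = 0.00573). Hsd17b7 (chr1:169949535-169969241), a 3-ketosteroid reductase of the same demethylation steps as Nsdhl, was at 72.9 and 70.3 CPM untreated, 35.5 and 35.7 with ethanol and 36.4 and 37.2 with 4-OHT in Cre-negative cells. Cre-positive cells had Hsd17b7 at 109 and 109.7 CPM untreated, 108 and 106 with ethanol and 105 and 98.0 with 4-OHT. It fell with both agents in Cre-negative cells (ethanol -1.01, SE 0.0491, adjusted p = 3.15e-12; 4-OHT -0.96, SE 0.0492, adjusted p = 5.84e-12). Cre-positive values were -0.03 (adjusted p = 0.743) with ethanol and -0.10 (adjusted p = 0.0610) with 4-OHT, the latter past the threshold without library 11 (-0.16, adjusted p = 0.0262), with upper-quartile scaling (adjusted p = 0.0205) and in a fit of the 2 groups alone (0.0327).

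The other 6 enzymes after squalene were Sqle (147 to 296 CPM), the lanosterol demethylase Cyp51 (241 to 554), the methyl oxidase Msmo1 (178 to 475), the isomerase Ebp (34.7 to 89.6), the desaturase Sc5d (114 to 194) and the last-step reductase Dhcr7 (11.9 to 28.5). For 5 of these the lowest library was a Cre-negative ethanol one; for Ebp it was a Cre-negative 4-OHT one. From ethanol to 4-OHT in Cre-positive cells Cyp51 (-0.20, SE 0.0371, adjusted p = 0.000261), Msmo1 (-0.31, SE 0.0408, adjusted p = 4.83e-06) and Sc5d (-0.18, SE 0.0416, adjusted p = 0.00136) fell. Akap9, whose exons overlap Cyp51 on the opposite strand, also fell there (-0.19, SE 0.0431, adjusted p = 0.00128), and was at 116 CPM on average. Ebp rose (0.28, SE 0.0479, adjusted p = 9.18e-05), from 70.7 and 66.3 CPM to 85.2 and 81.0, close to its untreated 89.6 and 84.3. Sqle (-0.09, adjusted p = 0.0571) and Dhcr7 (-0.13, adjusted p = 0.133) did not pass. Sqle lay near the threshold and passed with DESeq2 (adjusted p = 0.0436), upper-quartile scaling (0.0280), a fit of the 2 groups alone (0.0481) and ethanol and untreated cells as 1 reference (0.000626), and Dhcr7 passed with that joint reference (0.000863).

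**Figure D3:**
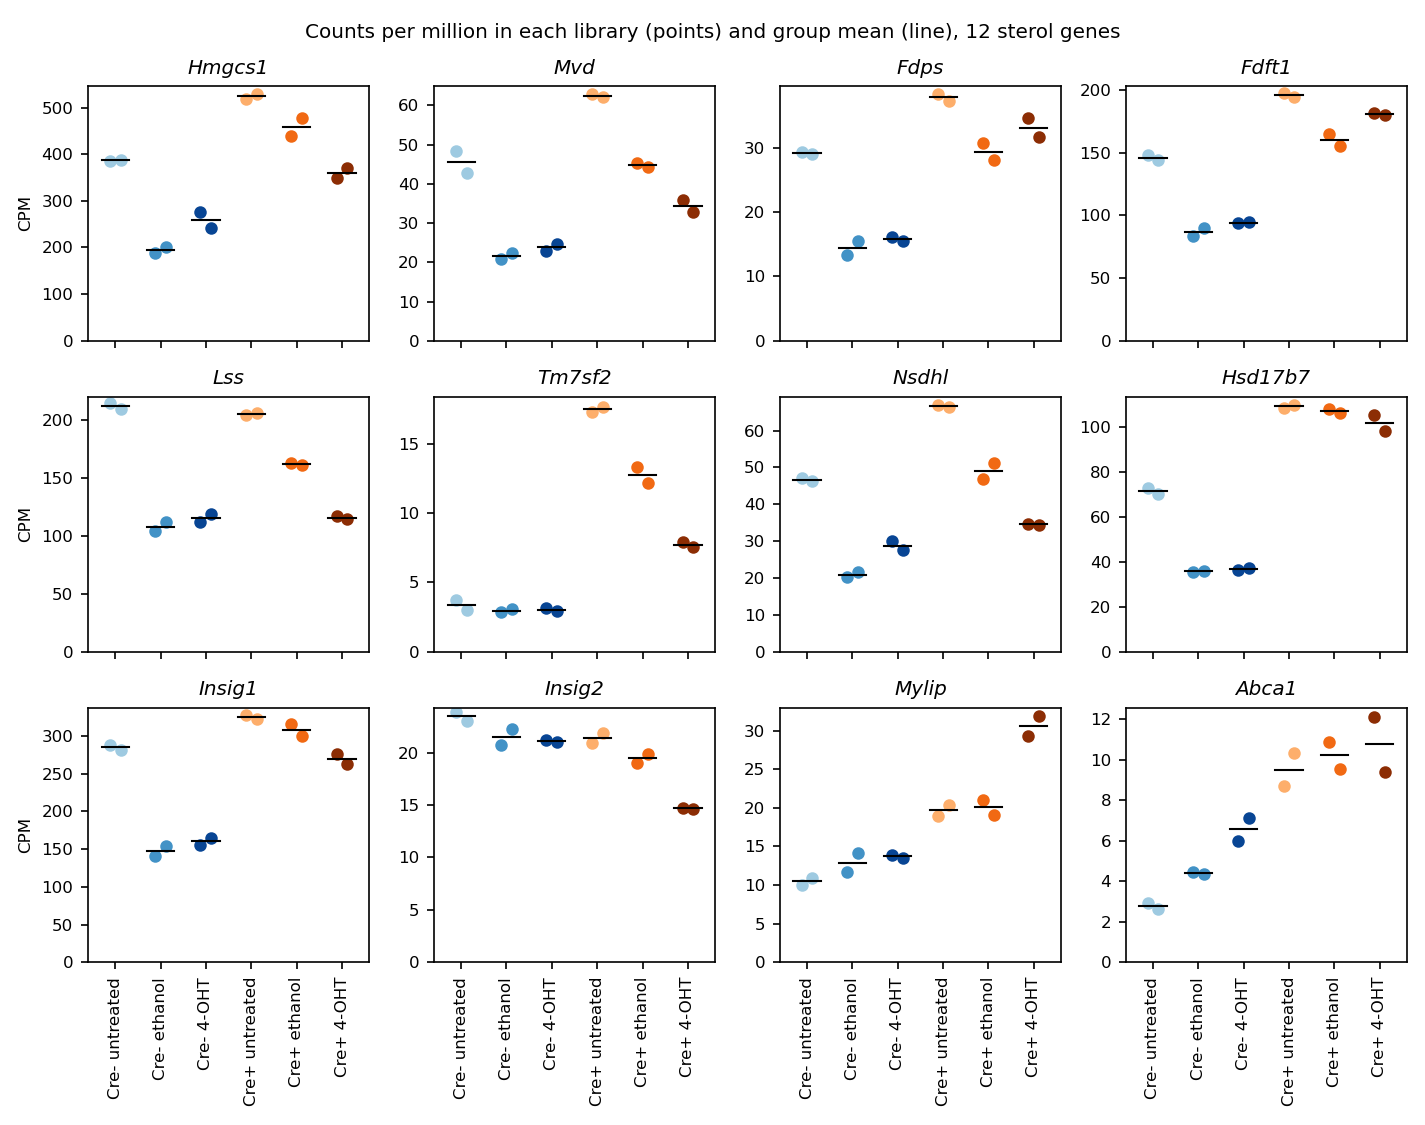
CPM (vertical axis, from 0) of 12 sterol genes in each library (points), by group (horizontal axis), with the group mean as a line. Hmgcs1 and Nsdhl are lowest with ethanol in Cre-negative cells and with 4-OHT in Cre-positive cells, and Tm7sf2 stays at or under 3.70 CPM in all Cre-negative libraries.

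The 5 regulators differed among themselves, and whether they differ from the enzymes was not tested. Srebf1, tied more to fatty acid genes, ran from 66.3 to 87.4 CPM, and Srebf2, tied more to cholesterol genes, from 106 to 164. The escort protein Scap ran from 56.6 to 75.3 CPM. Scap did not pass in any comparison with untreated cells (log2 changes 0.00 to 0.11), except in Cre-negative cells with ethanol when library 2 was left out (0.21, adjusted p = 0.00989). Srebf2 fell in Cre-negative cells with ethanol (-0.41, SE 0.0537, adjusted p = 7.15e-06) and with 4-OHT (-0.35, SE 0.0537, adjusted p = 5.15e-05). In Cre-positive cells Srebf2 fell with 4-OHT (-0.20, SE 0.0523, adjusted p = 0.00385), but not past the threshold without library 11 (-0.17, adjusted p = 0.0567). With ethanol it was at -0.14 (adjusted p = 0.0878), and at -0.22 (adjusted p = 0.0213) without library 4. Srebf1 fell in Cre-positive cells with ethanol (-0.21, SE 0.0438, adjusted p = 0.00241) and 4-OHT (-0.35, SE 0.0436, adjusted p = 1.78e-06). In Cre-negative cells Srebf1 was at 0.00 (adjusted p = 0.956) with ethanol and -0.10 (adjusted p = 0.118) with 4-OHT. From ethanol to 4-OHT in Cre-positive cells Srebf1 fell (-0.14, SE 0.0433, adjusted p = 0.0151). Rai1, whose exons overlap Srebf1 on the opposite strand, also fell there (-0.28, SE 0.0700, adjusted p = 0.00345). Rai1 did not pass from untreated to 4-OHT in that line (-0.16, adjusted p = 0.0798).

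The 2 Insig genes differed from each other. Insig1 (chr5:28071363-28078662), itself a target of SREBP, was at 289 and 282 CPM untreated, 142 and 154 with ethanol and 156 and 165 with 4-OHT in Cre-negative cells. Cre-positive cells had Insig1 at 328 and 322 CPM untreated, 316 and 300.0 with ethanol and 277 and 263 with 4-OHT. It fell in Cre-negative cells by 0.95 with ethanol and 0.83 with 4-OHT (log2 changes -0.95 and -0.83, adjusted p = 2.33e-12 and 1.46e-11) and in Cre-positive cells with 4-OHT (-0.27, SE 0.0438, adjusted p = 4.64e-05). Cre-positive ethanol cells were at -0.08 (adjusted p = 0.258). Insig2 (chr1:121304353-121332589), which does the same work in the endoplasmic reticulum, was at 23.8 and 23.1 CPM untreated, 20.8 and 22.2 with ethanol and 21.2 and 21.0 with 4-OHT in Cre-negative cells. Cre-positive cells had Insig2 at 20.9 and 21.8 CPM untreated, 19.0 and 19.9 with ethanol and 14.7 and 14.6 with 4-OHT. The Cre-positive 4-OHT libraries were below all 10 others. Insig2 fell there from ethanol (-0.41, SE 0.0705, adjusted p = 0.000105) and from untreated (-0.54, SE 0.0718, adjusted p = 3.75e-06), and did not pass in any other comparison of treated with untreated cells.

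The transport genes did not follow 1 direction. Stard4, which carries cholesterol between membranes, ran with the enzymes: it fell from untreated by 0.83 (Cre-negative, ethanol), 0.52 (Cre-negative, 4-OHT), 0.22 (Cre-positive, ethanol) and 0.40 (Cre-positive, 4-OHT) on the log2 scale. Mylip (chr13:45389742-45412022), a ubiquitin ligase induced by sterols that sends lipoprotein receptors for degradation, was at 10.0 and 10.9 CPM untreated, 11.7 and 14.1 with ethanol and 13.95 and 13.47 with 4-OHT in Cre-negative cells. Cre-positive cells had Mylip at 19.0 and 20.4 CPM untreated, 21.1 and 19.1 with ethanol and 29.2 and 31.9 with 4-OHT. The Cre-positive 4-OHT libraries stood above all others, while untreated and ethanol libraries of that line overlapped. Mylip rose there from ethanol by 0.61 (SE 0.0797, adjusted p = 4.35e-06) and from untreated by 0.64 (SE 0.0826, adjusted p = 2.77e-06). In Cre-negative cells it rose from untreated by 0.38 with 4-OHT (adjusted p = 0.00965; 0.0638 without library 5 and 0.0893 without library 1) and by 0.30 with ethanol (adjusted p = 0.0327; 0.0560 to 0.399 without library 1, 2 or 10).

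Abca1 (chr4:53030787-53159895), the exporter of cholesterol to apolipoproteins and also a sterol-induced gene, was at 2.95 and 2.62 CPM untreated, 4.46 and 4.38 with ethanol and 6.00 and 7.13 with 4-OHT in Cre-negative cells. Cre-positive cells had Abca1 at 8.73 and 10.3 CPM untreated, 10.9 and 9.55 with ethanol and 12.1 and 9.42 with 4-OHT. The 3 Cre-negative groups were in order without overlap, and the Cre-positive groups overlapped. In Cre-negative cells Abca1 rose from untreated by 1.26 (SE 0.170, adjusted p = 1.25e-05) with 4-OHT, and by 0.67 (SE 0.182, adjusted p = 0.00916) with ethanol, where the call was lost without library 2 (0.59, adjusted p = 0.102). Cre-positive values for Abca1 were 0.11 (adjusted p = 0.645) with ethanol and 0.19 (adjusted p = 0.230) with 4-OHT, or 0.36 (adjusted p = 0.0391) without library 12. Npc1, which moves cholesterol out of lysosomes, stayed between 41.1 and 47.5 CPM and did not pass against untreated in either line.

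With ethanol as the reference, the 2 lines gave opposite counts. In Cre-positive cells 15 of the 28 genes fell with 4-OHT and 5 rose, or 3 with DESeq2 or without library 11 (all genes: 17.2% lower, 21.1% higher, 38.3% called), with a median log2 change of -0.14 against 0.03 over all genes. In Cre-negative cells 10 of the 28 rose and none fell (all genes: 3.33% higher, 2.65% lower, 5.99% called), with a median of 0.12 against 0.00 over all genes. The 10 were Acat2, Hmgcs1, Idi1, Sqle, Cyp51, Nsdhl, Sc5d, Dhcr7, Stard4 and Abca1. Without library 5 or library 9 the count of 10 dropped to 4, without library 10 to 5 and without library 6 to 7, and Acat2, Hmgcs1, Nsdhl and Stard4 passed in all 4 of these fits. In Cre-positive cells 16 of the 20 calls held without any 1 library. The exceptions were Mvk, Fdps, Ggps1 and Srebf1, whose calls were lost without library 3 (Mvk, Srebf1), 4 (Mvk, Fdps, Ggps1), 11 (Mvk, Fdps, Ggps1) or 12 (Mvk, Ggps1, Srebf1).

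The difference between the lines in the change from ethanol to 4-OHT was tested directly. It was lower in Cre-positive cells for 17 of the 28 genes and higher for 3, Ggps1, Ebp and Mylip (all genes: 13.8% lower, 14.5% higher, 28.3% called), with a median of -0.36 against 0.02 over all genes. With ethanol and untreated cells taken as 1 reference, 11 were lower and 8 higher, while 50.5% of the calls over all genes were higher. Nsdhl differed by -0.96 (SE 0.0873, adjusted p = 9.17e-08), Hmgcs1 by -0.77 (SE 0.0749, adjusted p = 2.64e-07), Tm7sf2 by -0.74 (SE 0.182, adjusted p = 0.00413) and Lss by -0.58 (SE 0.0594, adjusted p = 4.25e-07). The count before squalene was 6 of 8 lower (Acat2, Hmgcs1, Mvk, Pmvk, Mvd and Idi1), and after squalene 8 of 10, with Ebp higher and Hsd17b7 not passing (-0.12, adjusted p = 0.188). Of the regulators, Insig1 (-0.31, SE 0.0635, adjusted p = 0.000915) and Insig2 (-0.38, SE 0.0983, adjusted p = 0.00635) were lower. Mylip was higher (0.53, SE 0.125, adjusted p = 0.00326), but not without library 10 (0.37, adjusted p = 0.0611). The call on Ggps1 (0.22, adjusted p = 0.0277) was lost without any 1 of libraries 4, 5, 6, 9, 11 and 12 (adjusted p 0.0610 to 0.108) and with DESeq2 (adjusted p = 0.0968).

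With untreated cells as the reference, the same test gave another picture. The 4-OHT change was higher in Cre-positive cells for 11 of the 28 genes and lower for 5 (all genes: 12.0% higher, 11.7% lower, 23.8% called), with a median of 0.09 against 0.00 over all genes. Before squalene 3 of 8 were higher and none lower, and after squalene 5 of 10 were higher and 2 lower. Hsd17b7 differed by 0.86 (SE 0.0652, adjusted p = 1.14e-08), Fdps by 0.69 (SE 0.105, adjusted p = 4.8e-05), Insig1 by 0.56 (SE 0.0629, adjusted p = 1.46e-06) and Fdft1 by 0.52 (SE 0.0593, adjusted p = 1.99e-06). Ctsb, whose exons overlap Fdft1, also differed here (0.37, SE 0.0483, adjusted p = 9.81e-06). The 5 lower ones were Tm7sf2 (-1.04, SE 0.181, adjusted p = 0.000216), Abca1 (-1.06, SE 0.212, adjusted p = 0.000766), Insig2 (-0.39, SE 0.0993, adjusted p = 0.00621), Srebf1 (-0.24, SE 0.0624, adjusted p = 0.00619) and Nsdhl (-0.25, SE 0.0830, adjusted p = 0.0333). The call on Nsdhl was lost without any 1 of libraries 2, 5, 7, 8, 11 and 12 (adjusted p 0.0690 to 0.129), and with DESeq2 (adjusted p = 0.0876). Those on Idi1 (libraries 1 and 5) and Npc1 (libraries 1, 2, 5, 8, 11 and 12) were also lost without any 1 of the libraries named.

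The 2 versions of this difference use the same 4-OHT libraries and differ only in the reference. Idi1 was at -0.42 with ethanol and 0.37 with untreated cells as the reference, Sqle at -0.21 and 0.47, Cyp51 at -0.38 and 0.31, Msmo1 at -0.43 and 0.25 and Insig1 at -0.31 and 0.56. For these 5 genes the sign turned with the reference, and each value passed the test. Hmgcs1 was at -0.77 and 0.04, Mvd at -0.52 and 0.07, and Lss at -0.58 and 0.05; the first value of each passed the test and the second did not. Tm7sf2, Nsdhl and Insig2 were lower, and Ebp and Ggps1 higher, with either reference.

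**Figure D4:**
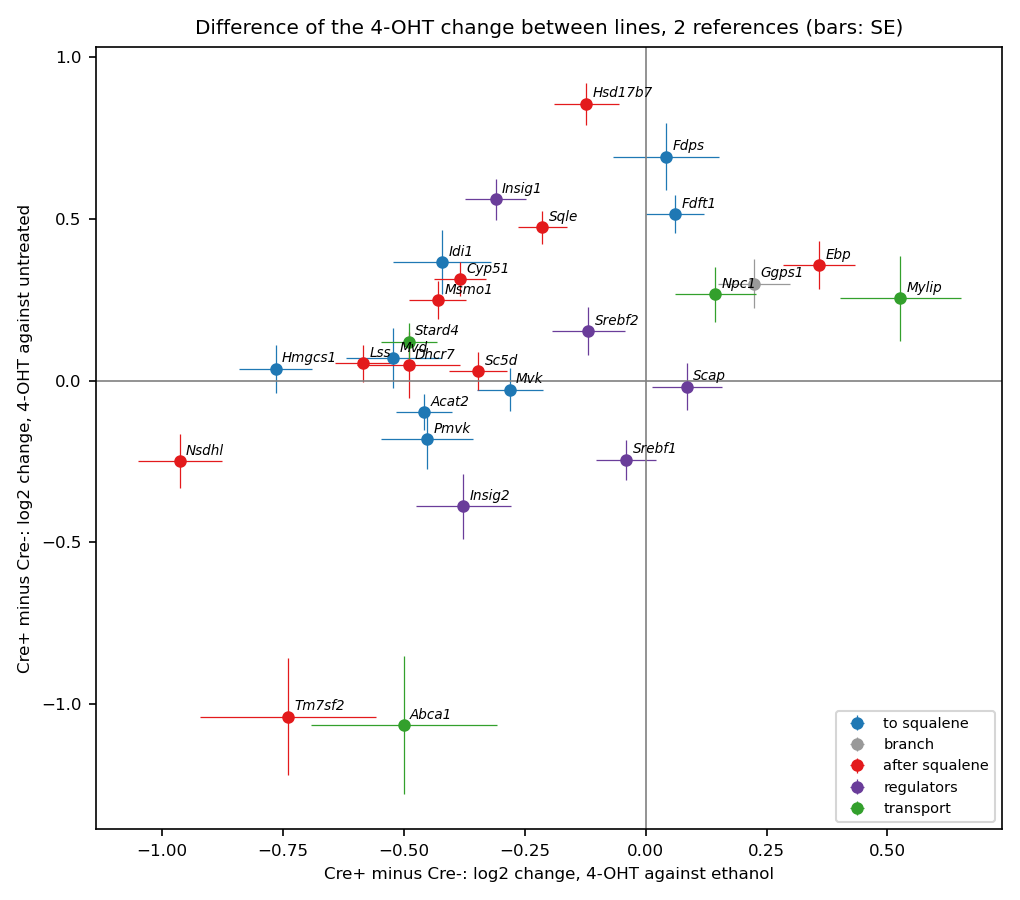
Cre-positive minus Cre-negative log2 change with 4-OHT for each of the 28 genes, with ethanol as reference (horizontal axis) and with untreated cells as reference (vertical axis); bars are SE and colours mark the roles. Most enzymes lie left of 0 and at or above 0 on the vertical axis, with Acat2, Mvk, Pmvk, Nsdhl and Tm7sf2 below 0 on both.

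Other genes of lipid metabolism were counted in Cre-positive cells with 4-OHT against ethanol, from lists chosen by role. Of 13 fatty acid genes that SREBP also controls, 11 fell and 1 rose, with a median of -0.21 (all genes: 17.2% lower, 21.1% higher, 38.3% called). Fasn, fatty acid synthase, fell by 0.62 (log2 change -0.62, adjusted p = 6.64e-09), Lpin1, a phosphatidate phosphatase, by 0.46 (SE 0.0785, adjusted p = 9.37e-05), Acss2, which makes acetyl-CoA from acetate, by 0.35 (SE 0.0942, adjusted p = 0.00538) and the elongase Elovl6 by 0.33 (SE 0.0362, adjusted p = 3.87e-07). The difference between lines was called lower for 10 of 13 with ethanol (median -0.41; 13.8% of all genes) and for 9 of 13 with untreated cells (median -0.28; 11.7% of all genes), and higher for none. Whether fatty acid and sterol genes differ in this was not tested. Of 8 genes for SREBP cleavage and Insig turnover, 4 fell and none rose, beside 17.2% and 21.1% of all genes: Erlin1 (-0.44), Mbtps2 (-0.30), Erlin2 (-0.29) and Mbtps1 (-0.15). Mbtps1 and Mbtps2 are the proteases that cut SREBP. Of 13 tested genes of sterol uptake, storage and lysosomal release, 3 rose and 3 fell, which is near the 38.3% called over all genes. Npc2 (0.44, SE 0.0424, adjusted p = 8.1e-08) and Lipa (0.35, SE 0.0463, adjusted p = 4.91e-06), which act in the lysosome, rose, and the lipoprotein receptor Lrp1 (-0.44, SE 0.0860, adjusted p = 0.000392) and the esterifying enzyme Soat1 (-0.39, SE 0.0488, adjusted p = 2.47e-06) fell. Of 10 genes that use isoprenoids, 3 rose (Dhdds 0.27, Zmpste24 0.19, Icmt 0.12) and Pggt1b fell by 0.16, also near that 38.3%.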

How the data were processed

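Per the labels' protocols, 12 libraries were made from ribosome-depleted RNA (TruSeq Stranded Total RNA, Ribo-Zero Gold) and sequenced in pairs on a NextSeq. The table the authors deposited holds whole-number expected counts by gene symbol. Tools listed in the submitters' processing notes are cutadapt 1.11, STAR 2.5.2a, RSEM 1.2.30 and edgeR, with GRCm38 as the build. Annotation, strand setting and any filter were not given in the sources used here, so reads of overlapping genes may be shared.

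The counts were tested with edgeR 4.0.16 in R 4.3.3. Of 47517 genes filterByExpr kept 17609, TMM factors were 0.972 to 1.02, and 1 quasi-likelihood model of the 6 group means took in all 12 libraries. Tests were 2-sided, with Benjamini-Hochberg adjustment over all 17609 genes and a threshold of 0.05, in 8 comparisons. SE is that of the log2 change, from the F statistic. CPM uses TMM-scaled totals. The 2 libraries of a group differed by a chi-square per degree of freedom of 2.52 to 5.03, so none was treated as a copy, and the biological coefficient of variation was 3.44%. Totals of 20201855 to 36367012 set the precision, with 67 or more counts behind each value of the 28 genes. The fitting script was tested on simulated data. Coordinates are from GENCODE M21 (GRCm38), which held all 28 symbols, and promoter sequences from RefSeq (GRCm38.p6).

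The 28 genes and the other lists were chosen with earlier results of these data known. Values in every library are given for 12 genes: those past the test in either difference between lines with the largest log2 difference, plus the most changed of each role with 4-OHT against ethanol in Cre-positive cells. From each other list up to 4 genes past that last test with the largest change are named. Alternatives were DESeq2 1.42.0, upper-quartile scaling, no low-count filter, fits on the compared groups alone, ethanol and untreated cells as 1 reference, and leaving out each library.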

Additional observations from a re-analysis of the deposited data

Results flagged for a closer look

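The change with 4-OHT differed between the Cre-positive and Cre-negative lines, by edgeR's quasi-likelihood test of the difference itself, in 20 of the 28 genes with ethanol as the reference (28.3% of all genes) and in 16 with untreated cells (23.8% of all genes). The values are log2 differences, Cre-positive minus Cre-negative, and both sets use the same 4-OHT libraries.

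With ethanol as the reference the genes lower in Cre-positive cells were Acat2 -0.46, Hmgcs1 -0.77, Mvk -0.28, Pmvk -0.45, Mvd -0.52, Idi1 -0.42, Sqle -0.21, Lss -0.58, Cyp51 -0.38, Tm7sf2 -0.74, Msmo1 -0.43, Nsdhl -0.96, Sc5d -0.35, Dhcr7 -0.49, Insig1 -0.31, Insig2 -0.38 and Stard4 -0.49. Those higher were Ggps1 0.22, Ebp 0.36 and Mylip 0.53. Of the 4 with the largest absolute value, 3 were enzymes after squalene (Nsdhl, Tm7sf2 and Lss) and the other was Hmgcs1.

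With untreated cells as the reference those higher were Idi1 0.37, Fdps 0.69, Fdft1 0.52, Ggps1 0.30, Sqle 0.47, Cyp51 0.31, Msmo1 0.25, Hsd17b7 0.86, Ebp 0.36, Insig1 0.56 and Npc1 0.27, and those lower were Tm7sf2 -1.04, Nsdhl -0.25, Srebf1 -0.24, Insig2 -0.39 and Abca1 -1.06. Abca1 and Tm7sf2 had the largest values. For both, the untreated libraries of the 2 lines did not overlap (Abca1 2.62 and 2.95 against 8.73 and 10.3 CPM, Tm7sf2 2.98 and 3.70 against 17.3 and 17.7 CPM). This was not particular to them, as among the genes described here only Ggps1 overlapped (43.2 and 45.6 against 43.9 and 47.8 CPM). How many of all tested genes separate in this way was not counted, so it cannot be called a trait of the sterol genes. The differences between untreated cells of the lines were not tested.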

How the results depend on the processing

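No paired analysis was possible because the titles number the libraries 1 to 12 and no number is shared between groups. With ethanol and untreated cells as 1 reference, the difference between lines called 11 genes lower and 8 higher, against 17 and 3. Over all genes 50.5% of the calls were higher with that reference, against 51.2%. Under that reference Sqle (0.13, adjusted p = 0.0318), Hsd17b7 (0.37, adjusted p = 6.04e-05) and Insig1 (0.12, adjusted p = 0.0978) turned positive, and Fdps was at -0.0073 (adjusted p = 0.935) with 4-OHT in Cre-positive cells. The 5 genes higher with 4-OHT than with ethanol in Cre-positive cells became 3 under DESeq2, without the low-count filter, in a fit of the 2 groups alone and with the joint reference. DESeq2 called 1 gene, against 2, higher with ethanol than untreated in Cre-negative cells.

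Leaving out 1 library at a time, with a lone library assumed to vary like the other groups, gave 3 to 5 higher for 4-OHT against ethanol in Cre-positive cells and 4 to 7, against 10, in Cre-negative cells. In Cre-negative cells against untreated it gave 1 to 2 higher with 4-OHT and with ethanol. The counts of genes lower than untreated ran from 19 to 20 with 4-OHT and 15 to 18 with ethanol in Cre-positive cells, and were 20 throughout in Cre-negative cells. Over all tested genes, calls for 4-OHT against ethanol in Cre-negative cells numbered 1054, but 1648 in a fit of these 2 groups alone and 274 to 636 without 1 library. Calls against untreated cells moved to 2156 to 2482 (4-OHT) and 2775 to 3321 (ethanol) in Cre-negative cells and to 1440 to 2485 (ethanol) in Cre-positive cells. For calls that moved with a setting, the cause was not tested. Depth limits Abca1 and Tm7sf2 most, the least abundant of the 28.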
